A study of Mus musculus with 9 samples.

Results

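The epidermal growth factor (EGF) family was followed in RNA sequencing libraries of sorted mouse lung cells through 10 genes, of 54449 genes in the deposited table. They are the ligands Areg, Ereg, Hbegf, Btc, Tgfa and Nrg1, the receptors Egfr, Erbb2 and Erbb3, and Errfi1, an intracellular inhibitor of the receptor kinases. The 10 were picked by gene name with their differences from the naive libraries already known, so their fold changes and calls describe these genes and do not test the family. Each had 1 entry in the table. The test was run on genes with a mean of at least 5 normalized counts over all libraries, which kept 9 of the 10 and left out Tgfa. Btc reached that mean through the libraries from tumour-injected mice and Erbb3 through the naive libraries.

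Per the labels, all cells were lung eosinophils, granulocytes of type 2 immunity, from C57BL/6 mice, and each library pooled cells of 3 to 4 mice, so n counts pools. The Siglec-F high libraries (n = 3, titled iEOS) and the Siglec-F int libraries (n = 3, titled rEOS) held cells with high and intermediate surface Siglec-F, a sialic acid-binding receptor, from mice that had received PyMT tumour cells in 200 µl of saline through the tail vein. The naive libraries (n = 3) came from mice given the saline alone. PyMT stands for the polyoma middle T antigen, whose mammary transgene gives mouse breast tumours. The age of the mice and the time between injection and sorting are not given in the sources used here. Values are normalized counts per gene, not corrected for gene length, so levels are compared between libraries and not between genes.

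EGF family ligands are made as membrane-anchored precursors, and proteases of the ADAM family cut them free. The freed ligands bind receptors of the ERBB family, which pair, phosphorylate each other on tyrosine, and engage the Ras to MAP kinase cascade and the PI3 kinase branch. Areg and Tgfa bind Egfr, while Ereg, Hbegf and Btc bind Egfr and Erbb4, and Nrg1 binds Erbb3 and Erbb4. Erbb2 has no known ligand and acts as a partner, and Erbb3 has little kinase activity of its own. In the lung, amphiregulin, the product of Areg, is known from tissue repair and type 2 immunity, where lymphoid cells and eosinophils are among its sources.

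Libraries held between 2205949 and 12495639 reads, and between 15002 and 20052 genes had a value above 0. The fewest reads were in naive library 2, where 3 reads, the limit that a count of 0 allows, equal 7.82 normalized counts. Of 11 eosinophil markers, 7 had no library above 31.3, while Csf2rb, a cytokine receptor subunit of several myeloid cells, reached 651 in Siglec-F int library 2, and Prg2, which encodes major basic protein, and the ribonuclease gene Ear6 reached 379.5 and 194 in Siglec-F high library 3. Siglecf stood at 3.58 to 17.6 normalized counts in the Siglec-F high libraries, 6.98 to 20.2 in the Siglec-F int libraries and 4.18 to 31.3 in the naive libraries, and Ccr3, Prg3 and Cebpe had 0 reads in all naive libraries. Markers of pigment and Schwann cells (12 genes) summed to between 539.6 and 1520 in the Siglec-F high libraries, between 533 and 1072 in the Siglec-F int libraries and between 59892 and 68873 in the naive libraries, which goes against the cell type in their labels. All 3 naive libraries share this, so no comparison with them can be given without such libraries, and group names below are those of the labels. The Siglec-F high and Siglec-F int libraries also held markers of several other cell types. Fibroblast and smooth muscle markers (12 genes) summed to 26232 to 39018 in the former and 11116 to 27271 in the latter. Monocyte and interstitial macrophage markers (10 genes) summed to 5169 to 15121 and 12626 to 58170. Alveolar macrophage markers (10 genes, Siglecf among them) summed to 5771 to 8215 and 2697 to 3650. Neutrophil markers (8 genes) summed to 1753 to 3740 and 1022 to 1620. The 11 eosinophil markers summed to 199 to 836 and 303 to 757. Sums of different lists do not measure the shares of cell types. That 7 of the 11 eosinophil markers had no library above 31.3 goes against the label of these libraries too. Siglec-F high was also compared with Siglec-F int, which does not use the naive libraries.

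Relative to the naive libraries, 4 ligands (Areg, Ereg, Hbegf and Btc), the receptor Egfr and the inhibitor Errfi1 rose in the Siglec-F high and in the Siglec-F int libraries, and the receptor Erbb3 fell in both. Nrg1 and Erbb2 were not called in either. Of the 9 members tested between Siglec-F high and naive, limma called 6 higher and 1 lower at an adjusted p under 0.05, where it called 31.3% of all 13642 genes tested (14.7% higher and 16.6% lower). Between Siglec-F int and naive it also called 6 higher and 1 lower, against 22.3% of all genes (12% higher and 10.3% lower). The members' median log2 fold change was 4.03 in the first comparison and 3.17 in the second, where that of all genes tested was -0.11 and -0.02. In the first comparison 6 members lay above naive and 1 below without overlap, as did 46.4% of all genes (20.2% above and 26.3% below). In the second 6 lay above and 2 below, against 50.9% of all genes (23.3% above and 27.6% below). Both comparisons use the same naive libraries, and since the members were picked with these values known, nothing is read from the counts. No member was called between Siglec-F high and Siglec-F int, where limma called 0% of all genes, 591 genes (4.33%) had an unadjusted p under 0.05, and 0 of these were members. The cells were sequenced in bulk, so fewer cells of a type and less RNA per cell cannot be told apart.

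**Figure D1:**
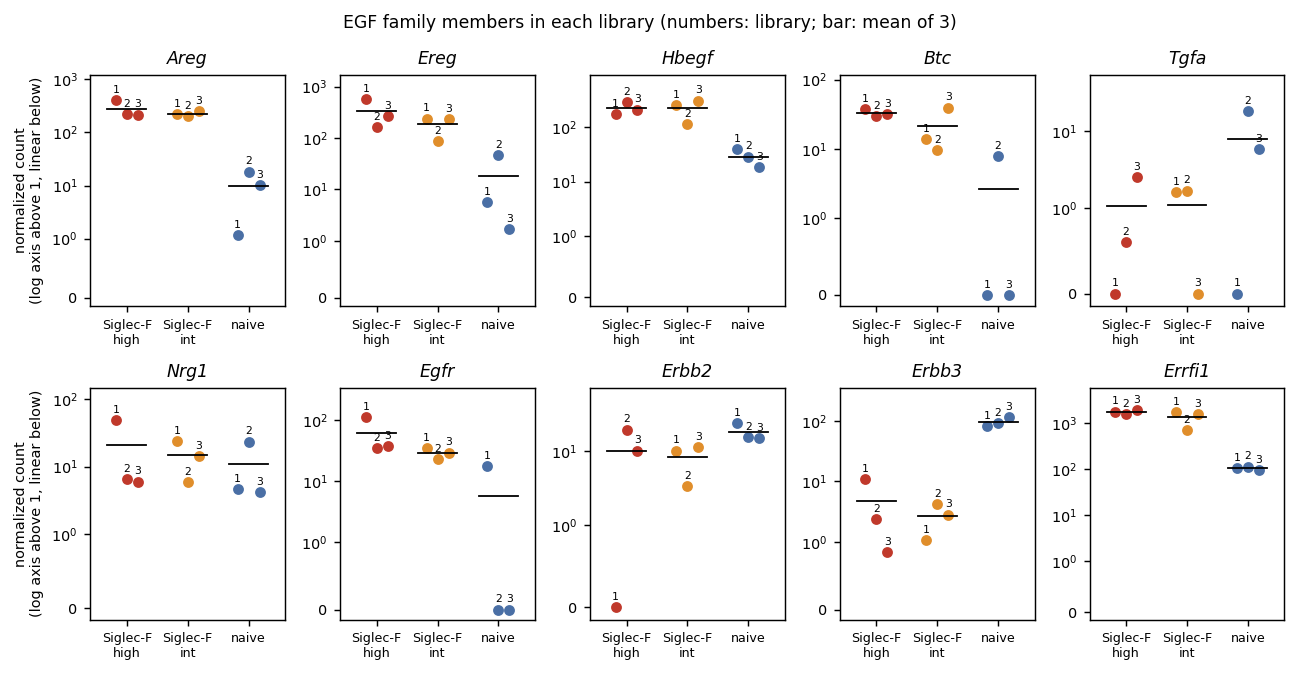
Normalized counts of the 10 members in each library, on an axis that is logarithmic above 1 and linear below. Each point is 1 library with its number, and bars are the means of 3 libraries. Areg, Ereg, Hbegf, Btc, Egfr and Errfi1 sit higher in every Siglec-F high and Siglec-F int library than in any naive library, and Erbb3 sits lower.

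Areg and Errfi1, the ligand and the inhibitor with the smallest adjusted p among the members between Siglec-F high and naive, are shown with the 250 bases before their RefSeq starts, and Btc is shown as a called ligand in whose window no motif was found. RefSeq windows on GRCm38.p6 matched 6 of the 10 members (Areg, Btc, Tgfa, Egfr, Erbb2 and Errfi1), and those of Ereg, Hbegf, Nrg1 and Erbb3 were not among them. Each strand was searched for the AP-1 site TGANTCA, the cyclic AMP response element (CRE) TGACGTC, the CArG box of serum response factor and the TATA box TATAAA. Capitals mark matches, and the sequences read 5′ to 3′ on the strand of the gene. They lie at chr5:91139349-91139598 (plus strand) for Areg, at chr4:150854820-150855069 (plus strand) for the second start of Errfi1, and at chr5:91402995-91403244 (minus strand) for Btc.
Areg: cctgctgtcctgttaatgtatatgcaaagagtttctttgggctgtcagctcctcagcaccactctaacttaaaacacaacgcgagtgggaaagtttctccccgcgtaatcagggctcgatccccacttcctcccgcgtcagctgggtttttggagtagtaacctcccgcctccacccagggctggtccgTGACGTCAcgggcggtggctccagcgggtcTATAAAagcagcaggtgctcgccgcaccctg
Errfi1: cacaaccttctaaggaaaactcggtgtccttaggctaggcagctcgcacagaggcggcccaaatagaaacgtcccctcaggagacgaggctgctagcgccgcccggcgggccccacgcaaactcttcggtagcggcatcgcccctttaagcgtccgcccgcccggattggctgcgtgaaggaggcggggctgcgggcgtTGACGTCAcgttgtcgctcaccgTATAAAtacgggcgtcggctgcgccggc
Btc: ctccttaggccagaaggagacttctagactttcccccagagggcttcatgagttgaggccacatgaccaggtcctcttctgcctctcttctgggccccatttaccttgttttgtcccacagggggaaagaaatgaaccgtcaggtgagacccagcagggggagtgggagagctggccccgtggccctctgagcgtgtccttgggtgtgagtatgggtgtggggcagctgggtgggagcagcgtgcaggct

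The window of Areg holds TGACGTCA at -61 to -54 and TATAAA at -31 to -26, counted back from the start. That of the second Errfi1 start holds the same letters at -51 to -44 and -28 to -23. TGACGTCA reads the same on both strands and so matches the searched CRE letters on each strand. Of 32851 RefSeq windows of this length, 2.78% held the CRE letters, 12.4% TATAAA, 6.75% the AP-1 letters and 1.47% the CArG box. None of the searched motifs was found in the windows of Btc, Tgfa, Egfr, Erbb2 or the first Errfi1 start. These matches describe letters in the reference, and binding was not measured.

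Among the ligands, Areg (ENSMUSG00000029378.5; chromosome 5, 91139599 to 91148432, GRCm38) had normalized counts of 412, 218 and 217 in the Siglec-F high libraries, 220.1, 204 and 249 in the Siglec-F int libraries and 1.15, 18.2 and 10.0 in the naive libraries. Every library from tumour-injected mice was above every naive library, and the Siglec-F int libraries lay within 204 to 249. Means were 283 ± 112, 225 ± 22.8 and 9.80 ± 8.55 (SD, n = 3 each) in the Siglec-F high, Siglec-F int and naive libraries, and the naive mean rested on 20 reads. On the log2(value + 1) scale, the added 1 shrinks the change of low genes, while a library near 0 can widen it. Areg rose on this scale by 5.14 ± 0.70 (SE) in Siglec-F high over naive (limma adjusted p = 0.000855) and by 4.87 ± 0.70 in Siglec-F int over naive (limma adjusted p = 0.00143). The size depended on the naive libraries: without naive library 1, which held 1 read, it was 4.22 and 3.95, and without naive library 2 it was 5.80 and 5.53.

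Ereg (ENSMUSG00000029377.5; chromosome 5, 91074622 to 91093646) encodes epiregulin, a ligand known from wound repair and inflammation. Its values were 575, 161 and 267 in the Siglec-F high libraries, 240.0, 86.8 and 229.6 in the Siglec-F int libraries and 5.73, 46.9 and 1.67 in the naive libraries. The naive libraries lay below all others, the nearest values being 46.9 in naive library 2 and 86.8 in Siglec-F int library 2. Ereg rose by 4.94 ± 0.93 in Siglec-F high over naive (limma adjusted p = 0.00414) and by 4.16 ± 0.93 in Siglec-F int over naive (limma adjusted p = 0.0108). Without naive library 2 these were 6.11 and 5.32, and without naive library 3 they were 4.03 and 3.24.

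Hbegf (ENSMUSG00000024486.5; chromosome 18), the heparin-binding ligand that also serves as the diphtheria toxin receptor in humans, stood at 171, 281 and 207 in the Siglec-F high libraries, 253, 113 and 302 in the Siglec-F int libraries and 39.0, 28.7 and 18.4 in the naive libraries. Siglec-F int library 2 was the lowest of the libraries from tumour-injected mice and still above every naive library. Hbegf rose by 2.93 ± 0.46 in Siglec-F high (limma adjusted p = 0.00183) and by 2.86 ± 0.46 in Siglec-F int (limma adjusted p = 0.0025), each over naive, and no single library left out moved either fold change by more than 1.5 times.

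Btc (ENSMUSG00000082361.6; chromosome 5, 91357261 to 91402994), which encodes betacellulin, was scarcer in reads. It stood at 37.3, 29.8 and 31.6 in the Siglec-F high libraries, 14.0, 9.69 and 39.5 in the Siglec-F int libraries and 0, 7.82 and 0 in the naive libraries. All 3 naive reads came from naive library 2, whose value lay just under that of Siglec-F int library 2. With so few naive reads the ratio of summed reads, scaled for depth, was 26.3 between Siglec-F high and naive (95% exact counting interval 8.79 to 129) and 19.2 between Siglec-F int and naive (6.47 to 94.2). These intervals cover counting error only. Btc rose by 4.03 ± 0.94 in Siglec-F high over naive (limma adjusted p = 0.0106) and by 3.17 ± 0.94 in Siglec-F int over naive (limma adjusted p = 0.0343). Without naive library 2 the fold changes were 5.08 and 4.22. In the int comparison the call was lost in 9 of 21 alternatives (adjusted p 0.00743 to 0.148), among them leaving out Siglec-F high library 3 (0.0519), Siglec-F int library 1 (0.0843), 2 (0.0531) or 3 (0.148), naive library 1 (0.107) or naive library 3 (0.103), edgeR on the recovered reads (0.0514) and no filter on low values (0.0859).

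Tgfa and Nrg1 did not share this pattern in these libraries. Tgfa (ENSMUSG00000029999.14; chromosome 6, 86195223 to 86275719), the ligand transforming growth factor alpha, stood at 0, 0.60 and 2.56 in the Siglec-F high libraries, 1.61, 1.69 and 0 in the Siglec-F int libraries and 0, 18.2 and 5.85 in the naive libraries. It had 4, 7 and 14 reads in these groups, and its read ratio was 0.186 between Siglec-F high and naive (0.0447 to 0.593) and 0.166 between Siglec-F int and naive (0.0566 to 0.439). Naive library 1 had 0 Tgfa reads, as did library 1 of Siglec-F high and library 3 of Siglec-F int, and the gene was not tested. Nrg1 (ENSMUSG00000062991.7; chromosome 8, 31814551 to 32884029), the neuregulin that Schwann cells depend on, stood at 49.4, 6.56 and 5.97 in the Siglec-F high libraries, 24.2, 5.90 and 14.2 in the Siglec-F int libraries and 4.59, 23.4 and 4.18 in the naive libraries. The 3 groups overlapped, and Siglec-F high library 1 and naive library 2 stood well above the rest of their groups. The log2 fold changes of Nrg1 were 0.64 ± 0.98 between Siglec-F high and naive (limma adjusted p = 0.634) and 0.63 ± 0.98 between Siglec-F int and naive (limma adjusted p = 0.668), and the first was -0.30 without Siglec-F high library 1.

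Of the receptors, Egfr (ENSMUSG00000020122.16; chromosome 11, 16752203 to 16918158), the receptor of all the ligands above except Nrg1, rose. It stood at 112, 34.6 and 36.7 in the Siglec-F high libraries, 34.4, 22.8 and 29.1 in the Siglec-F int libraries and 17.2, 0 and 0 in the naive libraries. Siglec-F high library 1 was far above the rest, and all 15 naive reads came from naive library 1. A count of 0 allows up to 7.82 in naive library 2 and up to 2.51 in naive library 3, both below the lowest Siglec-F int value. Egfr rose by 4.34 ± 1.06 in Siglec-F high over naive (limma adjusted p = 0.013) and by 3.48 ± 1.06 in Siglec-F int over naive (limma adjusted p = 0.0386). These fold changes were 5.74 and 4.88 without naive library 1, and 3.64 and 2.78 without naive library 2 or 3. The read ratios were smaller, at 8.83 (95% exact counting interval 5.23 to 16.1) and 4.64 (2.75 to 8.44). Of the alternatives run, the first call was lost only when library 1 of Siglec-F high and library 2 of Siglec-F int were left out together (adjusted p = 0.0512). The second was lost in 11 of 22 alternatives (adjusted p 0.00566 to 0.143), including edgeR (0.143) and DESeq2 (0.0912) on the recovered reads and the removal of Siglec-F high library 3 (0.0541), of Siglec-F int library 1 (0.118), 2 (0.0838) or 3 (0.111), or of naive library 2 (0.122) or 3 (0.12).

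Erbb3 (ENSMUSG00000018166.8; chromosome 10, 128567523 to 128589652), the neuregulin receptor of Schwann cells and melanocytes, was the only member called lower. It stood at 11.0, 2.39 and 0.85 in the Siglec-F high libraries, 1.07, 4.21 and 2.85 in the Siglec-F int libraries and 81.4, 91.2 and 116 in the naive libraries. The naive libraries were close to each other and far above the rest, which held 15 reads in Siglec-F high and 21 in Siglec-F int, against 245 in naive. Erbb3 fell by 4.51 ± 0.80 in Siglec-F high relative to naive (limma adjusted p = 0.00307), with a log2 fold change of -5.26 without Siglec-F high library 1 and -3.92 without library 3. It fell by 4.80 ± 0.80 in Siglec-F int relative to naive (limma adjusted p = 0.00278). Pigment and Schwann cell markers moved with it: of 11 tested, 9 fell in Siglec-F high relative to naive with a median of -7.42, and 10 fell in Siglec-F int with a median of -6.73. Of all genes tested, 16.6% fell in the first comparison and 10.3% in the second. None of these markers was at 0 in every library, 1 was at 0 in all Siglec-F int and all naive libraries, and their part in the Erbb3 result was not tested.

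Erbb2 (ENSMUSG00000062312.5; chromosome 11, 98412470 to 98437716), the partner receptor, stood at 0, 19.7 and 10.2 in the Siglec-F high libraries, 10.2, 3.37 and 11.4 in the Siglec-F int libraries and 24.1, 15.6 and 15.0 in the naive libraries. Siglec-F int did not overlap naive, and Siglec-F high did. Its log2 fold changes were -1.62 ± 1.06 between Siglec-F high and naive (limma adjusted p = 0.254; -0.31 without Siglec-F high library 1 and -2.49 without library 2) and -1.15 ± 1.06 between Siglec-F int and naive (limma adjusted p = 0.458). Erbb2 overlaps Mien1 on the opposite strand, which had 5074 reads and reached 1222 normalized counts. Whether the counting used strand is not given in the sources used here, so the Erbb2 values are uncertain.

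Errfi1 (ENSMUSG00000028967.10; chromosome 4, 150853919 to 150868892), also known as Mig-6, binds the kinase domain of Egfr and its relatives, and growth factors induce its transcription. It was the best-covered member, with 6498 reads in Siglec-F high, 9811 in Siglec-F int and 246 in naive. Errfi1 stood at 1765, 1569 and 1927 in the Siglec-F high libraries, 1695, 704 and 1576 in the Siglec-F int libraries and 102, 112 and 95.2 in the naive libraries. The naive libraries lay within 95.2 to 112, and Siglec-F int library 2 was the lowest of the others. Errfi1 rose by 4.07 ± 0.34 in Siglec-F high over naive (limma adjusted p = 0.00013) and by 3.57 ± 0.34 in Siglec-F int over naive (limma adjusted p = 0.000314). Both calls held in all 22 alternatives.

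**Figure D2:**
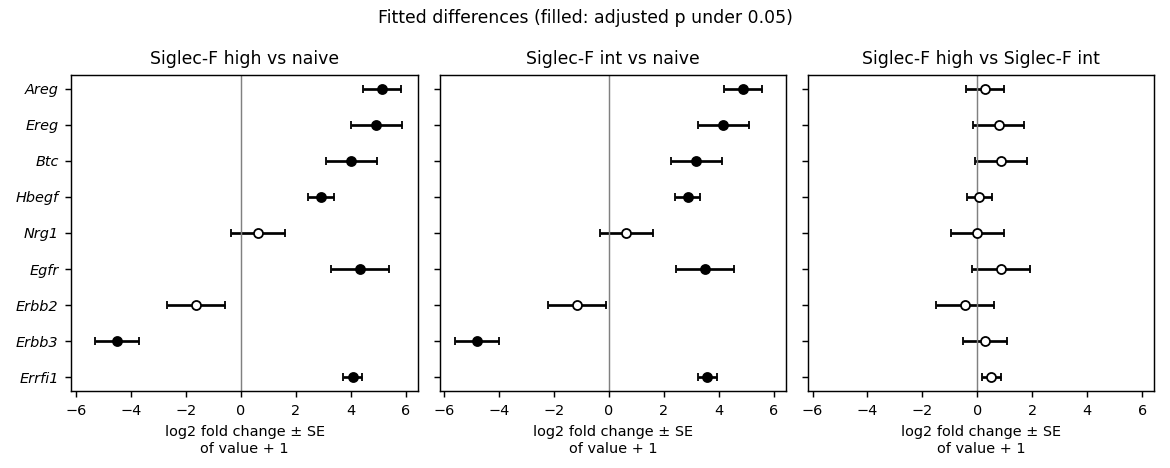
Fitted log2 fold changes of value + 1 with their SE for the 9 tested members in the 3 comparisons, where filled points have a limma adjusted p under 0.05. Areg, Ereg, Btc, Hbegf, Egfr and Errfi1 lie to the right of 0 and Erbb3 to the left in both comparisons with naive, and all points are open between Siglec-F high and Siglec-F int.

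Between the Siglec-F high and Siglec-F int libraries, which shared the tumour injection and differed in surface Siglec-F, no member was called by limma, edgeR or DESeq2. Over all genes DESeq2 called 6 and edgeR and limma 0. The members' median log2 fold change was 0.28, beside -0.08 for all genes tested. Errfi1 differed by 0.50 ± 0.34 (95% interval -0.26 to 1.26), Areg by 0.27 ± 0.70 (-1.27 to 1.80), Ereg by 0.79 ± 0.93 (-1.26 to 2.83) and Hbegf by 0.07 ± 0.46 (-0.95 to 1.09), so the intervals leave room for differences of more than 1.5-fold in either direction for Areg, Ereg and Hbegf. Btc differed by 0.86 ± 0.94 (-1.21 to 2.92). Egfr, at 0.86 ± 1.06 (-1.48 to 3.20, limma adjusted p = 0.841), was the only member whose Siglec-F high and Siglec-F int libraries did not overlap, as was the case for 11.3% of all genes tested (5.52% with Siglec-F high above and 5.75% with it below). Its lowest Siglec-F high value, 34.6, was close to its highest Siglec-F int value, 34.4.

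Libraries within a group differed in the same way for several members. Over the 6 members that rose, Siglec-F int library 2 was the lowest of its group for 6 of 6, and Siglec-F high library 1 was the highest of its group for 4 of 6. Among the naive libraries, library 3 was lowest for 5 of 6, counting ties. The same libraries stood apart in marker sums. Fibroblast and smooth muscle markers (12 genes, none at 0 in any group) summed to 39018 in Siglec-F high library 1 and to 11116 in Siglec-F int library 2, within ranges of 26232 to 39018 and 11116 to 27271, and to 7263 to 8858 in the naive libraries. Monocyte and interstitial macrophage markers (10 genes, none at 0 in any group) summed to 5169 to 15121 in Siglec-F high, with library 1 the lowest. They summed to 12626 to 58170 in Siglec-F int, with library 2 the highest, and to 4180 to 5616 in naive. Of the fibroblast and smooth muscle markers 8 of 12 rose in Siglec-F high over naive and 6 of 12 in Siglec-F int over naive, and of the monocyte and macrophage markers 6 of 10 and 7 of 10 rose. Of all genes tested, 14.7% rose in the first comparison and 12% in the second. Epithelial and mammary tumour cell markers summed to 1015 to 1084 in Siglec-F high, 789.6 to 1161 in Siglec-F int and 1094 to 2016 in naive, and of 9 tested 0 rose in either comparison. The part of any of these cell types in the members' levels was not tested. With these 2 libraries, high 1 and int 2, left out together, limma called the members as in the full set except that Egfr lost its call in both comparisons.

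**Figure D3:**
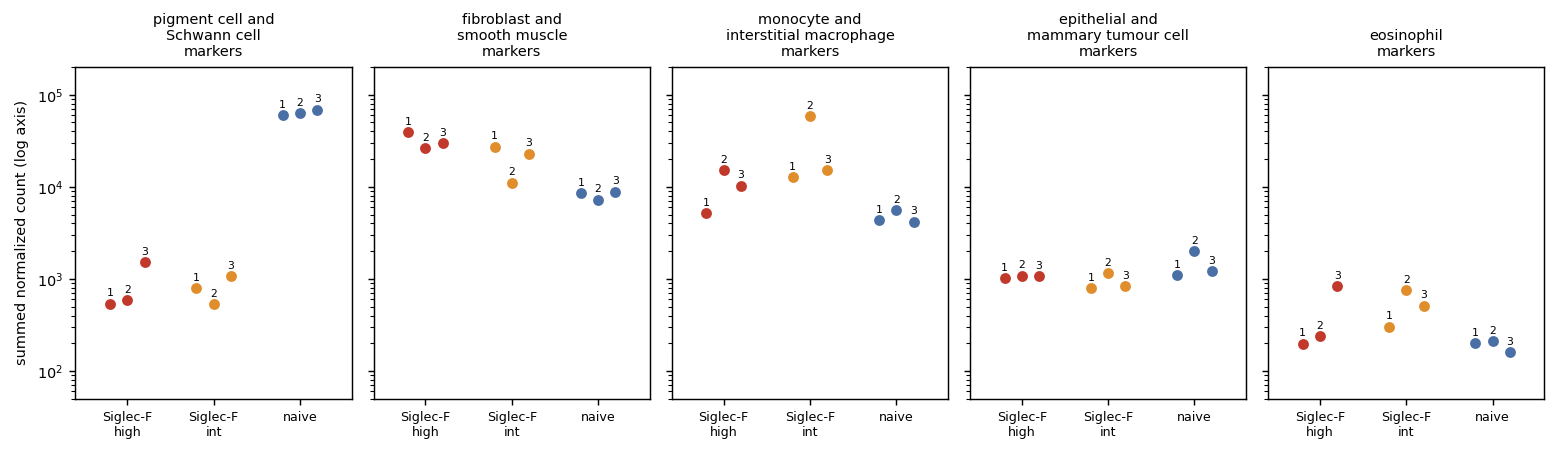
Summed normalized counts of 5 marker lists in each library, on a logarithmic axis, with the library number above each point. Pigment and Schwann cell markers are at 59892 or more in the naive libraries and at 1520 or less in the others, while fibroblast and smooth muscle markers are lowest in the naive libraries.

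Areg, Ereg and Btc lie in a cluster of EGF family genes on chromosome 5 that also holds Epgn, the gene of epigen, a further ligand of Egfr. Ereg ends 45953 bp before Areg, Epgn 104384 bp before it, and the near end of Btc, on the other strand, lies 208829 bp beyond it. Within 300 kb of Areg, 7 protein-coding genes, Areg included, had at least 100 reads. Epgn stood at 66.9, 25.1 and 0 in the Siglec-F high libraries, 45.1, 74.2 and 12.6 in the Siglec-F int libraries and 0, 0 and 0.84 in the naive libraries. Siglec-F high library 3 had 0 Epgn reads and the naive libraries had 1 in all, so Siglec-F high overlapped naive and Siglec-F int did not. The read ratio of Epgn was 67.2 between Siglec-F high and naive (11.8 to 2680) and 99.5 between Siglec-F int and naive (17.7 to 3940). Its log2 fold change was 3.30 ± 1.37 between Siglec-F high and naive (limma adjusted p = 0.0871), and it was 2.06 without Siglec-F high library 1. The gene was called there by edgeR (adjusted p = 0.0272) and DESeq2 (0.00227) and by limma without Siglec-F high library 3 (5.10, adjusted p = 0.0078). Epgn reached the mean of at least 5 needed for testing only through the libraries from tumour-injected mice, its naive mean being 0.28. It rose by 4.88 ± 1.37 in Siglec-F int over naive (limma adjusted p = 0.0283). That call was lost in 6 of 22 alternatives, without Siglec-F int library 1 (0.0933) or 2 (0.101), without naive library 1 (0.0794), 2 (0.0771) or 3 (0.0571), and with no filter (0.0636).

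Of the genes beside the cluster, Cxcl1 and Cxcl2, which encode neutrophil chemokines, rose in Siglec-F high over naive by 2.19 ± 0.68 (limma adjusted p = 0.0327) and 1.29 ± 0.39 (limma adjusted p = 0.03). Cxcl1 overlapped there: Siglec-F high library 1 was at 422, below 511 in naive library 2, while Siglec-F high libraries 2 and 3 were at 3074 and 3258. In Siglec-F int over naive Cxcl1 and Cxcl2 rose by 2.94 ± 0.68 (limma adjusted p = 0.0125) and 1.31 ± 0.39 (limma adjusted p = 0.0363). Mthfd2l, a mitochondrial folate enzyme gene, was at 3.47 ± 1.24 and 3.42 ± 1.24 and was called in neither (limma adjusted p = 0.0533 and 0.07).

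**Figure D4:**
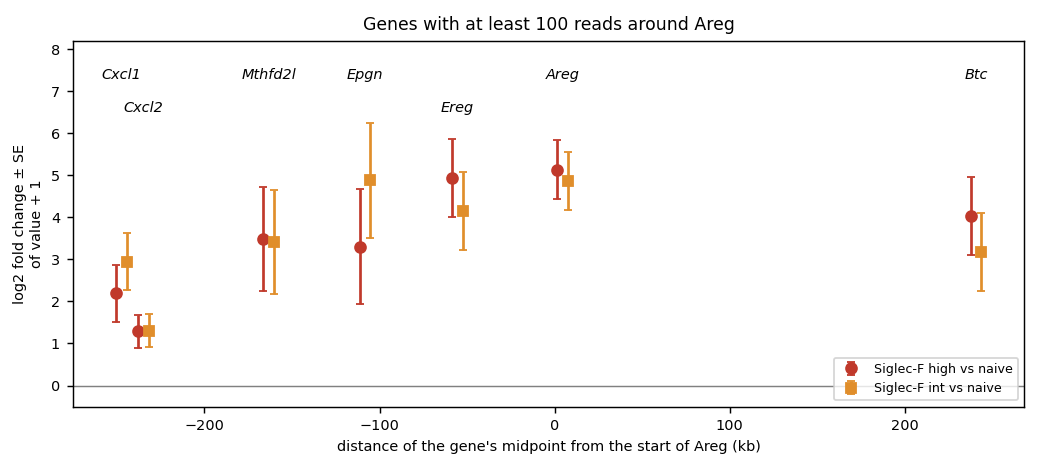
Log2 fold changes of value + 1 with their SE for genes with at least 100 reads within 300 kb of Areg, by the distance of the gene's midpoint from the start of Areg in kb. Circles are Siglec-F high over naive and squares Siglec-F int over naive, and all 7 genes lie above 0 in both, with Cxcl2 the smallest at 1.29 and 1.31.

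Other genes of the pathway moved in both directions. In 7 lists with 65 genes outside the members, 59 were tested. Between Siglec-F high and naive 24 rose, 7 fell and 28 were not called (median 0.99), and between Siglec-F int and naive 19 rose, 3 fell and 37 were not called (median 0.99), beside medians of -0.11 and -0.02 for all genes. Of all genes tested 14.7% rose and 16.6% fell in the first comparison, and 12% rose and 10.3% fell in the second, and the list counts below stand beside these shares. None was called between Siglec-F high and Siglec-F int by limma, where 4 had an unadjusted p under 0.05. The ligands Egf, Nrg2, Nrg3 and Nrg4 and the receptor Erbb4 were too low to be tested, at 9.69 or less in every library.

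Among the sheddases and their cofactors (6 tested), 3 rose and 1 fell in Siglec-F high, and 2 rose and 1 fell in Siglec-F int. Adam10 and Adam17, the main ligand sheddases, rose in Siglec-F high by 2.45 ± 0.51 (limma adjusted p = 0.00697) and 1.68 ± 0.38 (0.00997), and in Siglec-F int by 2.31 ± 0.51 (0.0105) and 1.82 ± 0.38 (0.00832). Adam12, another protease that can cut Hbegf, fell by 3.52 ± 0.76 and 3.36 ± 0.76, and by 2.47 in Siglec-F int without library 2. Of 9 adaptors 2 rose in Siglec-F high, namely Sos1, the exchange factor of Ras, by 1.94 ± 0.48 (limma adjusted p = 0.0134), and Nck1 by 1.57 ± 0.51 (0.0383), a call lost in 12 of 22 alternatives, among them the removal of any library except naive library 2 (adjusted p 0.0514 to 0.114). None of the adaptors was called in Siglec-F int, where Sos1 was at 1.00 ± 0.48 (limma adjusted p = 0.157), Nck1 at 1.54 ± 0.51 (0.0511, and called in 10 of 22 alternatives, at 0.0112 to 0.0465), and Grb2, the adaptor with the highest mean, was at 0.14 ± 0.40.

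The Ras and MAP kinase cascade (12 genes) had 2 members higher and 2 lower in Siglec-F high, and 1 higher in Siglec-F int, close to the shares of all genes called. Map2k2, which encodes the kinase MEK2, fell by 1.54 ± 0.38 in Siglec-F high (limma adjusted p = 0.0138) and was at -0.96 ± 0.38 in Siglec-F int (0.0946, or 0.00879 without Siglec-F high library 1). Braf was at 1.73 ± 0.60 in Siglec-F high and 1.05 without naive library 2, and its call was lost without any library except Siglec-F high library 2 or naive library 3 (adjusted p 0.0682 to 0.125). In Siglec-F int it was at 1.52 ± 0.60 (limma adjusted p = 0.0923), 0.83 without naive library 2 and 2.05 without naive library 3 (0.0465). The PI3 kinase branch (10 genes) had 6 higher and 2 lower in Siglec-F high and 5 higher and 1 lower in Siglec-F int. Pik3r1, a regulatory subunit, rose by 1.98 ± 0.35 in Siglec-F high (limma adjusted p = 0.00328) and 2.45 ± 0.35 in Siglec-F int (0.00152). Akt1, a kinase activated by this branch, fell by 1.85 ± 0.36 in Siglec-F high (limma adjusted p = 0.00461) and by 1.54 ± 0.36 in Siglec-F int (0.0127, or 0.0585 without Siglec-F int library 1). Pik3r2 was at -2.58 ± 0.83 in Siglec-F high, -1.56 without library 1 and -3.57 without library 2, and its call was lost without any library except Siglec-F high library 2 (adjusted p 0.0574 to 0.108). In Siglec-F int it was at -0.81 ± 0.83 (limma adjusted p = 0.515).

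Of 8 tested genes of ubiquitin ligases and endocytosis, 4 rose and 1 fell in Siglec-F high, and 4 rose in Siglec-F int. Sh3kbp1, an adaptor of receptor uptake, rose by 2.47 ± 0.29 in Siglec-F high (limma adjusted p = 0.00047) and 2.38 ± 0.29 in Siglec-F int (0.000784). Eps15, an endocytic substrate of Egfr, rose by 1.99 ± 0.40 (limma adjusted p = 0.00552) in Siglec-F high and by 1.57 ± 0.40 (0.0188) in Siglec-F int, where the call was lost without Siglec-F int library 1 (0.0729), 2 (0.0529) or 3 (0.0576) or naive library 1 (0.0646). Epn1 was at -2.33 ± 0.76 in Siglec-F high, -1.20 without library 1 and -3.02 without library 2, and its call was lost without any Siglec-F int or naive library (adjusted p 0.0553 to 0.116). In Siglec-F int it was at -0.59 ± 0.76 (limma adjusted p = 0.601). Feedback inhibitors other than Errfi1 (13 genes) had 7 higher and 1 lower in Siglec-F high, and 6 higher and 1 lower in Siglec-F int. Socs5 rose by 2.36 ± 0.36 in Siglec-F high (limma adjusted p = 0.00161) and 1.65 ± 0.36 in Siglec-F int (0.00999, or 0.0531 without Siglec-F int library 3). Rasa1, which switches Ras off, rose by 2.76 ± 0.45 in Siglec-F high (0.00207) and 2.36 ± 0.45 in Siglec-F int (0.00526). Lrig1, a membrane protein that promotes ERBB receptor breakdown, rose by 3.74 ± 0.64 in Siglec-F high (limma adjusted p = 0.00264) and 3.58 ± 0.64 in Siglec-F int (0.00395), and by 4.33 and 4.17 without naive library 1. Dusp4, a MAP kinase phosphatase, fell by 2.68 ± 0.50 in Siglec-F high (0.00385) and by 2.47 ± 0.50 in Siglec-F int (0.00679). Dusp6, another such phosphatase, did not overlap between Siglec-F high and Siglec-F int, at 0.97 ± 0.37 (limma adjusted p = 0.797).

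**Figure D5:**
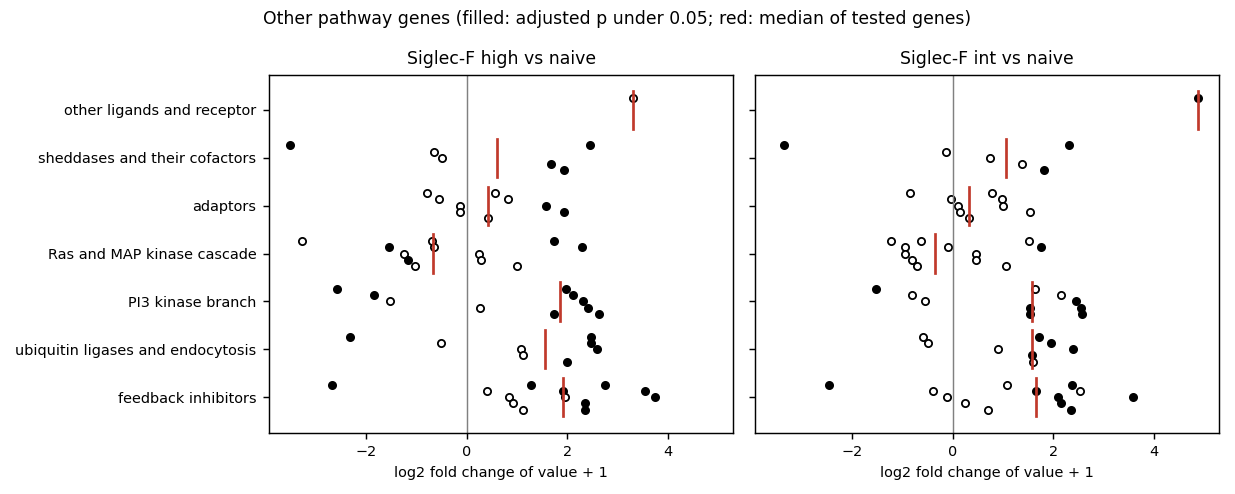
Log2 fold changes of value + 1 of the 59 tested genes in 7 pathway lists, each point 1 gene, filled where the limma adjusted p is under 0.05, with the median of each list in red. The PI3 kinase branch and the feedback inhibitors have medians of 1.86 and 1.91 in Siglec-F high over naive, and the Ras and MAP kinase cascade a median of -0.68.

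The genes whose profile over the 9 libraries was most like that of a called member were found by the root mean square difference of log2 values, each centred on its own mean. The libraries share depth and scaling between genes, and every called member already differed from naive, so these differences are descriptive. For Areg the nearest were Ankrd1 (0.383), Pla2g4a (0.401) and Psd3 (0.435). For Ereg they were Bmp2 (0.191), Rgs17 (0.476) and Itgb8 (0.477), and for Hbegf Nfix (0.275), Thsd4 (0.3) and Ncam1 (0.334). Bmp2 was at 1497, 551 and 805 in the Siglec-F high libraries, 709.7, 308 and 716 in the Siglec-F int libraries and 19.5, 125 and 5.01 in the naive libraries. As for Ereg, library 1 was the highest of Siglec-F high, library 2 the lowest of Siglec-F int and library 2 the highest of naive. Errfi1 was nearest to Sox9 (0.218), Irx2 (0.244) and Fgfr1 (0.257). Btc was nearest to Ier5l (0.424), H2afy2 (0.485) and Acsbg1 (0.527), Egfr to Iigp1 (0.54), Lrrk2 (0.579) and Celf4 (0.602), and Erbb3 to Olfr889 (0.561), Zfp446 (0.571) and Cyb5r2 (0.578). Among the members, Hbegf was nearest to Errfi1 (0.575), Ereg to Btc (0.752), Areg to Errfi1 (1.019) and Egfr to Errfi1 (1.253).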

How the data were processed

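The deposited table holds a signal value per gene and library, namely read counts over the library's size factor, with 2 decimals. Per the submitters' processing notes, TopHat2 2.1.0, HTSeq and DESeq2 1.10.0 were used with GRCm38, and per the labels the libraries followed Cell-seq protocols from cells sorted to over 98% purity with an RNA integrity number above 6.3. The steps of the deposited values gave whole reads for 100% of values up to 2000 reads (within 0.05 read), which set the depth, and 1 read was worth 0.316 to 2.61. Of 54670 entries, 63 with names turned into dates (0.219% of the total), 116 exact duplicates and 42 repeats of a name and its values were left out. Another 215 shared a name or identifier. Positions came from GENCODE M21, where 99.9% of genes matched.

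The 3 comparisons were contrasts of a single limma fit (version 3.58.1, R 4.3.3) of log2(value + 1) over all 9 libraries, with trended variance, for 13642 genes with a mean of at least 5. P-values were two-sided and adjusted by the Benjamini-Hochberg method over all of these, at 0.05. They measure the spread between pools. Counting of molecular identifiers is not mentioned, and intervals and floors cover counting error only. Members and lists were chosen with earlier results of these data known. All members are named, as are up to 2 called genes per pathway list and direction with the smallest adjusted p, or the gene with the highest mean where none was called, and the 3 genes nearest to each called member. A pathway gene named in one comparison with naive is given in the other too. Of the genes this rule names, 4 are not reported here. The genes within 300 kb of Areg and the marker genes named beside the results were chosen after values were seen.

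Alternatives were pseudocounts of 0.5 and 5, no filter or a mean of at least 20, 3 other scalings (equal totals, TMM, quantile), a fit of only the groups compared, no variance trend, the replicate number as a block, count tests on the recovered reads (edgeR 4.0.16, DESeq2 1.42.0), and the removal of libraries. No pair of libraries within a group agreed within sampling noise. Read ratios carry 95% exact intervals computed with scipy 1.17.1, and plots used matplotlib 3.10.9.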

Additional observations from a re-analysis of the deposited data

How the results depend on the processing

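Of the members' fold changes under 22 alternatives, 540 kept their direction and side of the threshold, 21 lost their call and 24 changed sign. For the other pathway genes named, 1051 kept both, 81 lost their call, 23 gained one and 11 changed sign. The count of members called was 6 to 7 between Siglec-F high and naive, 5 to 7 between Siglec-F int and naive and 0 between Siglec-F high and Siglec-F int.

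Over all genes, a fit of only the groups compared called 2509 between Siglec-F high and naive and 4808 between Siglec-F int and naive, against 4266 and 3036. Leaving out 1 library gave 2770 to 5101 and 1401 to 5167, the lowest without naive library 1 and without Siglec-F int library 3. Leaving out high library 1 and int library 2 together gave 4623 between Siglec-F int and naive. DESeq2 called 6 between Siglec-F high and Siglec-F int. The cause was not tested.

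Sign changes were in fold changes without a call. Between Siglec-F high and Siglec-F int, equal totals gave -0.061 for Hbegf and -0.13 for Nrg1, edgeR -0.047 for Hbegf and 0.26 for Erbb2, DESeq2 0.29 and quantile normalization 0.15 for Erbb2, and TMM -0.027 and a pseudocount of 0.5 -0.0099 for Nrg1. Leaving out 1 library in turn gave -0.038 to 0.42 for Areg, 0.30 to 1.21 for Ereg, -0.36 to 0.35 for Hbegf, -0.93 to 0.50 for Nrg1, -1.34 to 0.85 for Erbb2, -0.47 to 0.88 for Erbb3, -2.82 to 0.22 for Epgn, -0.32 to 0.41 for Adam10, -0.33 to 0.057 for Nras and -0.56 to 0.10 for Akt1. Without high library 1 and int library 2 together, Areg was at -0.10, Ereg at -0.18, Hbegf at -0.20, Nrg1 at -1.43, Erbb2 at 0.37, Erbb3 at -0.17, Adam10 at -0.089, Nras at 0.046 and Akt1 at 0.22. Against naive, leaving out 1 library gave -0.30 to 1.36 for Nrg1 in Siglec-F high and -0.20 to 0.42 for Grb2 in Siglec-F int, and leaving out both libraries -0.30 and -0.20.

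Over all 3 groups, deviations of libraries with the same replicate number had correlations of -0.029 to 0.14 (others -0.16 to 0.052). The main fit did not pair libraries by number. Between Siglec-F high and Siglec-F int alone, same-number pairs were at 0.0718 to 0.14 and the others at -0.16 to -0.0105. Whether these libraries came in pairs was not tested, and the main comparison of Siglec-F high with Siglec-F int leaves out any such pairing. With the replicate block 7, 6 and 0 members were called, Btc losing its call between Siglec-F int and naive (adjusted p = 0.05), and 4317, 3091 and 0 genes in all. Depth limits Tgfa, Btc and Egfr, which had 14, 3 and 15 naive reads.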
